A study of Mus musculus with 8 samples.

Results

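The genes described here are 32 enzymes and regulators of cholesterol and fatty acid synthesis, taken by symbol from a named list out of the 54837 genes in the count table. They comprise 16 enzymes of the sterol branch, 12 enzymes of the fatty acid branch and 4 regulators that serve both. RNA was sequenced from basal cells of the mammary gland of C57BL/B6 mice, untreated, separated by sorting into quiescent G0 cells and cells in G1, when a cell grows ahead of DNA replication. The labels give no age, sex, parity or sorting marker and do not state how many animals went into a library. G0 and G1 were each sequenced once per run over 4 runs, so both phases share strain and tissue and differ in phase alone by label. Of the 32 genes, 31 passed the filter on low counts and were tested, and Fdps did not.

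Cells make cholesterol from acetyl-CoA through mevalonate, farnesyl diphosphate and squalene. The fatty acid branch draws on the same acetyl-CoA, carboxylates it to malonyl-CoA and builds palmitate, which elongases and desaturases then modify. Genes of both branches are targets of the SREBP transcription factors, SREBP2 acting mainly on the sterol branch and SREBP1 mainly on the fatty acid branch. SREBPs are made as membrane precursors in the endoplasmic reticulum, where Scap escorts them to the Golgi for cleavage and Insig1 holds the complex back when sterols are plentiful. In the mammary gland, lipid synthesis is best known from secretory luminal cells in lactation and from the adipocytes of the fat pad, and less so from basal cells.

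Promoters are shown because the sterol genes moved together between runs, as described further on. RefSeq promoter windows on GRCm38.p6, each from 250 bases before to 50 bases after a transcription start, were found for 26 of the 32 genes. They were searched on both strands for TCACNCCAC, a form of the sterol regulatory element bound by SREBPs, for CCAAT, the core bound by NF-Y, and for GGGCGG, the core bound by Sp1. Below, capitals mark CCAAT or its reverse complement ATTGG and, in Hmgcs1, TCACNCCAC. The windows of Msmo1 (chr8:64733529-64733828, minus strand), Hsd17b7 (chr1:169969156-169969455, minus strand) and Hmgcs1 (chr13:119690101-119690400, plus strand) belong to the sterol genes that differed most between runs. That of Fasn (chr11:120824498-120824797, minus strand) stands for the fatty acid branch.
Msmo1: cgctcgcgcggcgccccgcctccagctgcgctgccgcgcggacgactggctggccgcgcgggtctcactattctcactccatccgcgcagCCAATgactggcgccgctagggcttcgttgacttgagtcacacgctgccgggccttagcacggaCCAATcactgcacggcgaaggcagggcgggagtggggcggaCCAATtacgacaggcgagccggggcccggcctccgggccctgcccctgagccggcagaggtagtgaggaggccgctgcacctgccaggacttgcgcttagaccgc
Hsd17b7: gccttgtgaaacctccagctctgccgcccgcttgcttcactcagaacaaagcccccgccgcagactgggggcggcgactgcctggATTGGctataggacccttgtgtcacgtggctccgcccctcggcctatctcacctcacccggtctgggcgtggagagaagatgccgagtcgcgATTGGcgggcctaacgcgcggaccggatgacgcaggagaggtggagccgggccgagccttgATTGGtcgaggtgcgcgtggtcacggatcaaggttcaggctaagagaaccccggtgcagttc
Hmgcs1: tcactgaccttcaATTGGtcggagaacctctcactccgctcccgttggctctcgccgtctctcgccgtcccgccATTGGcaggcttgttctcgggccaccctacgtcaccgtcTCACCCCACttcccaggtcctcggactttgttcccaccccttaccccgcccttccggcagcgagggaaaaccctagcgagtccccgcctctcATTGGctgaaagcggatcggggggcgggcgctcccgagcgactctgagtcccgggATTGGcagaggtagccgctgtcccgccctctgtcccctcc
Fasn: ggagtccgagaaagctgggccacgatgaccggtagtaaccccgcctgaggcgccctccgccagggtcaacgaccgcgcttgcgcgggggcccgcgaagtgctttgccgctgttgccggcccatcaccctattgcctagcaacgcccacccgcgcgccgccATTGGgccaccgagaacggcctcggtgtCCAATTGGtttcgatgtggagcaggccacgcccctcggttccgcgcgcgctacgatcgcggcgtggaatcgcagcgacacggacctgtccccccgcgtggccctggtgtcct

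Among the sterol enzymes, all 13 genes with a window held CCAAT in at least 1 of them, and 13 of their 16 windows did, against 37.4% of all 32851 windows of the same length. In the fatty acid branch 6 of 10 windows held it, and among the regulators 4 of 7. GGGCGG was found in 13 of 16 sterol windows, 6 of 7 regulator windows and 5 of 10 fatty acid windows, against 35.7% of all windows. TCACNCCAC was found in 1 member window, that of Hmgcs1, against 1.24% of all windows. These matches describe letters only, and a window without a match says nothing about binding.

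Total counts ranged from 5868728 to 15014104 per library. The G0 library of run 4 stood apart, with counts on 39094 genes against 20836 to 26614 in the others. The predicted gene Gm10800 took 8.13% of its counts. Gm10800 also took 1.71% in G1 of run 4 and 1.19% in G0 of run 3, and at most 0.013% in the rest. Basal markers were abundant in every library: the 10 basal markers summed to between 24051 and 31441 CPM in G0 and between 33880 and 37645 CPM in G1. CPM is each count rescaled to a common library total, here with TMM factors that correct for library composition. In bulk RNA, fewer cells that express a gene and less RNA per cell cannot be told apart.

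Most members were expressed in both phases. Scaled per kilobase of exon, which allows genes to be compared, the highest was Elovl1, an elongase of very long saturated chains, at 49.5 ± 10.4 CPM per kb in G0 and 47.5 ± 5.83 CPM per kb in G1 (SD, n = 4 per phase). Srebf2, which encodes SREBP2, followed at 40.6 ± 9.14 CPM per kb in G0, and Srebf1, which encodes SREBP1, had 26.3 ± 4.41 CPM per kb in G0. In the sterol branch the highest per-length levels in G0 were those of Fdft1, squalene synthase, at 25.1 ± 5.46, Cyp51, which removes a methyl group from lanosterol, at 22.9 ± 9.30, and Sqle, squalene epoxidase, at 22.9 ± 7.97 CPM per kb. Their differences from each other were smaller than their spread over libraries. At the low end stood Dhcr7, the last reductase of cholesterol synthesis, at 0.62 ± 0.24 CPM per kb, and Acacb, the mitochondrial acetyl-CoA carboxylase, at 0.38 ± 0.41 CPM per kb in G0. The cytosolic carboxylase Acaca was also low per length, at 0.93 ± 0.35 CPM per kb in G0, although its exon model of 17.1 kb joins many transcripts and lowers that value. Per length, the desaturase Scd2 exceeded its paralog Scd1 on average in both phases, at 4.79 ± 2.44 against 2.95 ± 0.72 CPM per kb in G0 and 6.91 ± 2.47 against 2.92 ± 0.64 in G1, with overlapping values in G0.

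**Figure D1:**
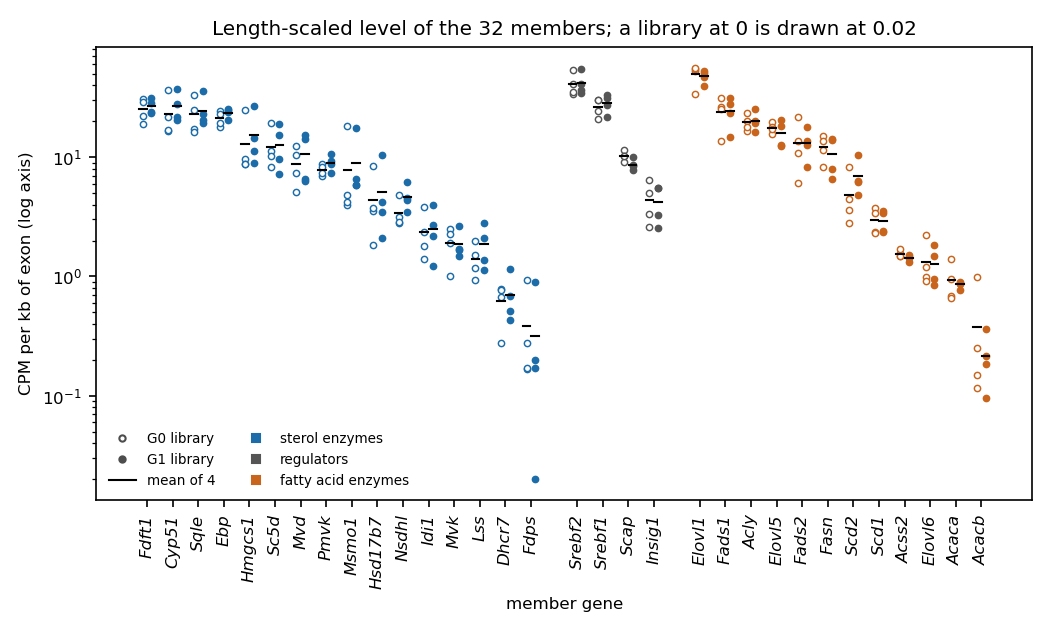
CPM per kilobase of exon (log axis) for each of the 32 genes, grouped by branch; open points are G0 libraries, filled points G1 libraries and bars the mean of 4. Elovl1, Srebf2 and Srebf1 lead, and Fdps and Acacb lie lowest, with the G0 and G1 points of each gene overlapping.

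Some counts are uncertain because other genes share their sequence. Transcripts of 7 members align to another annotated gene at 95% identity or more over at least 300 bases. Fdps, farnesyl diphosphate synthase, has 4 such processed pseudogenes, the closest 98.9% identical over 1062 bases, and gathered 141 counts in all 8 libraries. Its counts in runs 1 to 4 were 43, 13, 10 and 4 in G0 and 53, 11, 7 and 0 in G1. Acaca has the pseudogene Gm5182, 99.2% identical over 6118 bases, and Scd1 and Scd2 share 623 bases at 95.5%. Exons of 10 members overlap those of a gene on the other strand, and whether strand was used in counting is not given in the sources used here. Among these, Hmgcs1 had 5786 counts beside 1501 for the antisense gene Gm48342, and Fdft1 had 9227 beside 91454 for the cathepsin gene Ctsb.

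The study set out to find genes whose expression separates G0 from G1 basal cells. In a model without the run, the quasi-likelihood test of edgeR called 0 of 31 members higher and 0 lower, as it did for all 15192 tested genes (0% in each direction). Each member had an adjusted p of 0.9999, and 0 of 31 had an unadjusted p under 0.05, against 2.8% of all genes. With the run added as a block, 0 of 31 were called in either direction, against 0.481% of all genes higher and 0.764% lower. DESeq2 and limma-voom called 0 members too, with or without the block. In the blocked fit 5 members had an unadjusted p under 0.05, all higher in G1 (Msmo1, Cyp51, Nsdhl, Lss and Scd2), against 6.58% of all genes higher and 5.69% lower. No member had G0 and G1 values that did not overlap, against 2% of all genes. Unless another fit is named, each log2 fold change that follows compares G1 with G0 and comes from the edgeR model with the run block. Values for single genes are given ± the standard error. The closing section on processing starts from the fit with phase alone. Ratios within a run use a prior count of 2.

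Among the members, the sterol branch leaned slightly higher in G1 in each run, while the fatty acid branch did not. Some lists of related genes leaned the same way by median or by sum, but not by both, as given further on. All 15 tested sterol enzymes had a positive log2 fold change, with a median of 0.18, against 51.1% positive and a median of 0.01 over all tested genes. Of the 12 fatty acid enzymes 4 were positive, with a median of -0.04. Without the block 14 of 15 sterol enzymes and 3 of 12 fatty acid enzymes were positive, against 49.9% of all genes. Within runs 1 to 4 the sterol median was 0.07, 0.26, 0.29 and 0.25, and the fatty acid median was -0.02, -0.01, -0.06 and 0.08. The sterol median thus exceeded the fatty acid one in each of the 4 runs, by 0.09, 0.26, 0.34 and 0.17. No p is given for this difference, since genes of a pathway are not replicates. Basal markers moved with phase as well. In the blocked fit their median was 0.20, and 3 of 10 were called higher and 0 lower, against 0.481% and 0.764% of all genes. These 3 were Acta2, Cnn1 and Myl9, of the contractile apparatus, and 0 were called without the block. The sum of the basal markers was higher in G1 in every run, by 11.5% to 40.9%. In run 3, with the largest rise, the sum went from 24051 to 33880 CPM and Acta2 alone from 5855 to 10512 CPM. Krt5 and Krt14, basal keratins, had 0.05 each, and the basal marker Trp63 had -0.01. The part of the marker shift in the sterol values was not tested. Single members kept the sign less often: 3 of 15 sterol enzymes and 1 of 12 fatty acid enzymes were higher in G1 in all 4 runs, against 11.3% of all genes. With any 1 whole run left out of the blocked fit, the sterol median ran from 0.16 to 0.19, and 13 or 14 of its 15 or 16 tested genes were positive. Leaving out a single library of run 1 broke its pair and moved the median in the unblocked fit to -0.13 or 0.46.

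**Figure D2:**
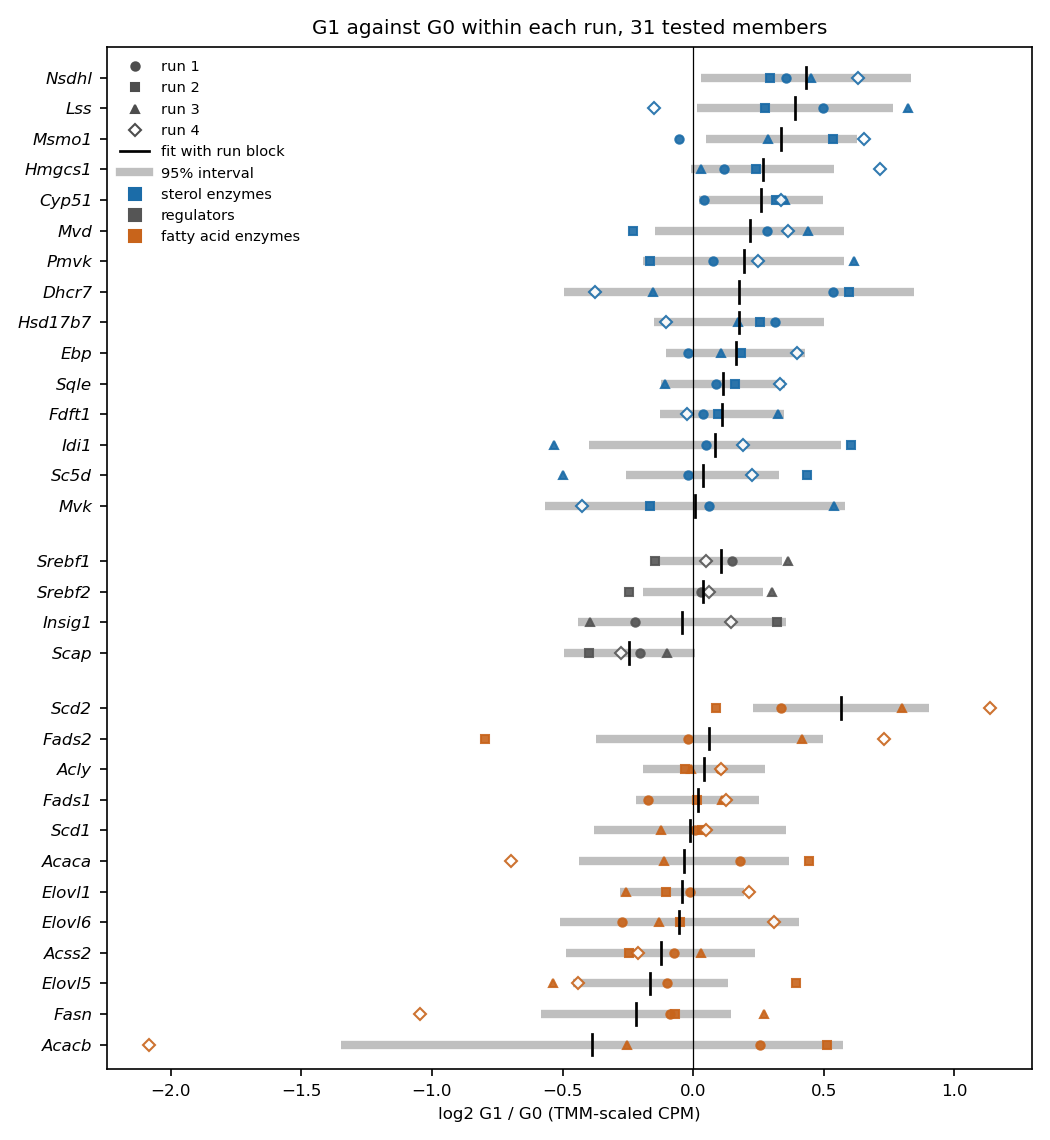
Log2 ratio of G1 to G0 within each run (symbols) for the 31 tested genes, with the blocked fit (black tick) and its 95% interval (grey bar), by branch. Sterol enzymes (top) have fitted values from 0.01 to 0.43, while 8 of 12 fatty acid enzymes (bottom) lie below 0.

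As summed CPM over its 16 genes, the sterol branch had 995, 502, 561 and 521 CPM in G0 of runs 1 to 4 and 1051, 589, 622 and 629 CPM in G1. The sum in G1 was 5.55%, 17.2%, 10.8% and 20.7% above that of G0 of the same run. Abundant genes weigh most in these sums. For the 12 fatty acid enzymes the sums were 774, 675, 609 and 646 CPM in G0 and 763, 651, 614 and 612 CPM in G1, differences of -1.42%, -3.58%, 0.814% and -5.29%.

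Early steps of the sterol branch make mevalonate and turn it into isoprenoid units. Hmgcs1, which makes HMG-CoA, had 113, 43.9, 39.9 and 40.0 CPM in G0 of runs 1 to 4 and 123, 52.0, 40.7 and 65.9 CPM in G1. It was higher in G1 in all 4 runs, by little in run 3, and its log2 fold change was 0.27 ± 0.13 (edgeR adjusted p = 0.425). The kinases Mvk and Pmvk, which phosphorylate mevalonate in sequence, had 0.01 ± 0.28 and 0.19 ± 0.19. Mvd, the decarboxylase that follows, had 0.22 ± 0.18, and Idi1, the isopentenyl diphosphate isomerase, had 0.08 ± 0.23. Within runs the signs of these 4 genes were mixed.

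Squalene and lanosterol steps come next. Sqle had 185, 95.2, 137 and 89.9 CPM in G0 and 197, 106, 127 and 113 CPM in G1, with a log2 fold change of 0.11 ± 0.11, and run 3 went the other way. Fdft1 had 0.11 ± 0.12. Lss, which closes the ring to form lanosterol, had 21.4, 10.1, 12.7 and 16.4 CPM in G0 and 30.3, 12.3, 22.7 and 14.8 CPM in G1. Its log2 fold change was 0.39 ± 0.18 (edgeR adjusted p = 0.386), with run 4 slightly below 0.

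Enzymes that convert lanosterol to cholesterol included most of the members with small unadjusted p. Cyp51 had 161, 73.0, 96.0 and 75.0 CPM in G0 and 166, 91.0, 123 and 94.9 CPM in G1, higher in all 4 runs by a log2 ratio of 0.04 to 0.35. Its fitted change was 0.26 ± 0.12 (edgeR adjusted p = 0.351). Nsdhl, a dehydrogenase that acts in the removal of methyl groups, had 13.8, 7.96, 8.97 and 8.22 CPM in G0 and 17.7, 9.81, 12.4 and 12.8 CPM in G1. It too was higher in all 4 runs, at 0.43 ± 0.20 (edgeR adjusted p = 0.362), the highest fitted value of the sterol branch. Msmo1, the sterol methyl oxidase, had 112, 24.5, 29.5 and 25.7 CPM in G0 and 108, 35.6, 36.0 and 40.6 CPM in G1. Its ratio was -0.05 in run 1 and 0.29 to 0.66 in the other runs, for a fitted 0.34 ± 0.14 (edgeR adjusted p = 0.297). For Msmo1 the gap between run 1 and the other runs was larger than that between phases. The remaining enzymes, Hsd17b7, Ebp, Sc5d and Dhcr7, had fitted values from 0.04 to 0.18.

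Regulators did not share the lean of the sterol enzymes. Srebf2 had 384, 292, 240 and 250 CPM in G0 and 393, 247, 297 and 262 CPM in G1, at 0.04 ± 0.11, and Srebf1 had 0.10 ± 0.11. The 95% intervals of these fits were -0.19 to 0.27 and -0.13 to 0.34. Insig1, itself an SREBP target, was low, at 19.8, 8.05, 10.4 and 15.4 CPM in G0 and 16.9, 10.1, 7.86 and 17 CPM in G1. Its fitted value of -0.04 ± 0.19 combined 2 runs of each sign. Scap was the only member lower in G1 in all 4 runs, against 9.46% of all genes. It had 85.3, 75.9, 68.0 and 75.9 CPM in G0 and 74.0, 57.6, 63.5 and 62.7 CPM in G1, a fitted -0.24 ± 0.12 (edgeR adjusted p = 0.425). SREBP activity depends on cleavage of the protein, which transcript counts do not measure.

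In the fatty acid branch the member nearest to the threshold was Scd2, a stearoyl-CoA desaturase that puts the double bond into saturated acyl chains. It had 45.4, 24.5, 19.6 and 15.2 CPM in G0 of runs 1 to 4 and 57.2, 26.1, 34.2 and 33.6 CPM in G1. It was higher in G1 in all 4 runs, least in run 2 and most in run 4, although the groups overlapped because run 1 was high in both phases. Its log2 fold change was 0.57 ± 0.16 (95% interval 0.23 to 0.90, edgeR adjusted p = 0.0985). Without run 2 the adjusted p was 0.0334, and without runs 1, 3 or 4 it was 0.0732, 0.215 and 0.545. Scd2 (ENSMUSG00000025203) lies on chromosome 19 from 44293674 to 44306864 on the plus strand, near Scd1 (ENSMUSG00000037071, from 44394455 to 44407879 on the minus strand). Scd1 had 11.4, 11.4, 18.2 and 16.6 CPM in G0 and 11.5, 11.7, 16.7 and 17.2 CPM in G1, at -0.01 ± 0.18. The difference between the paralogs was not tested.

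Enzymes that supply and build palmitate showed no shared direction. Acly, which releases acetyl-CoA from citrate, had 0.04 ± 0.11, and Acss2, which makes it from acetate, had -0.12 ± 0.18. Fasn, fatty acid synthase, had 166, 90.7, 126 and 149 CPM in G0 and 156, 86.5, 152 and 72.0 CPM in G1. The G1 library of run 4 was the lowest, at a ratio of -1.05 against -0.09, -0.07 and 0.27 in runs 1 to 3. The fitted value was -0.22 ± 0.17 (edgeR adjusted p = 0.678), and 0.03 ± 0.12 without run 4. Acacb had 1.45, 2.42, 1.13 and 9.47 CPM in G0 and 1.77, 3.53, 0.919 and 2.09 CPM in G1. Its fitted -0.39 ± 0.47 came from the G0 library of run 4, the one with counts on the most genes, and was 0.21 ± 0.50 without that run. Acaca was also highest in that library, at 24.1 CPM against 11.3 to 16.3 in the other 7.

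Elongases and desaturases of longer chains differed little by phase. Elovl1 had 145, 149, 153 and 92.7 CPM in G0 and 143, 138, 128 and 108 CPM in G1, with both run 4 libraries lowest, and a fitted -0.04 ± 0.12. Elovl5, which lengthens polyunsaturated chains, had -0.16 ± 0.14, and Elovl6, which takes palmitate to stearate, had -0.05 ± 0.22. Fads1 and Fads2, the desaturases of polyunsaturated fatty acid synthesis, are neighbours on chromosome 19 and had 0.02 ± 0.11 and 0.06 ± 0.20. For Fads1 the 95% interval was -0.22 to 0.25. Fads2 varied more, from -0.80 in run 2 to 0.73 in run 4.

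By branch median, the gap between run 1 and the other runs was larger than that between phases, most of all in the sterol branch. This comparison was chosen after the values were seen. In run 1 both libraries were above all 6 others for 11 of 15 tested sterol enzymes, 1 of 4 regulators and 4 of 12 fatty acid enzymes, against 7.11% of all tested genes. The median sterol enzyme was 1.74-fold higher in run 1 than in the mean of runs 2 to 4 (0.80 on the log2 scale), the median fatty acid enzyme 1.15-fold (0.20), and the median over all genes was 0.01 on the log2 scale. All 15 sterol enzymes were above 0 on that scale, from 0.15 for Pmvk to 1.80 for Msmo1. Hsd17b7, a ketosteroid reductase of the pathway, stood at 1.64 and Hmgcs1 at 1.35. Hsd17b7 had 43.2 and 53.6 CPM in G0 and G1 of run 1, against 9.40 to 21.6 CPM in the other 6 libraries. Fdps, too low to test, showed the same pattern, with 3.90 and 3.76 CPM in run 1 and at most 1.16 CPM elsewhere. Among the regulators, Insig1 stood at 0.73 and Srebf2 at 0.56. Scd2, at 1.05, and Elovl6, at 0.94, led the fatty acid branch, while 4 of its 12 genes lay below 0, Acacb at -0.54, Scd1 at -0.39, Acaca at -0.34 and Acss2 at -0.04.

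**Figure D3:**
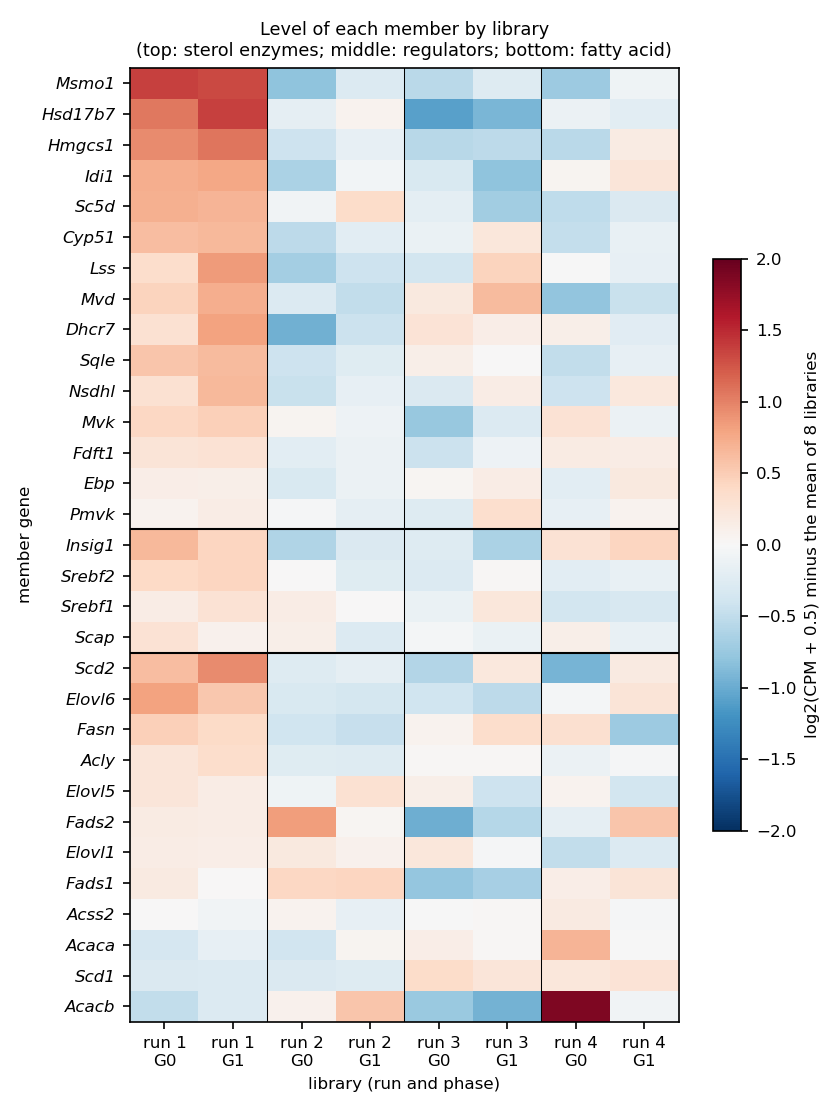
Level of each of the 31 tested genes in the 8 libraries, as log2(CPM + 0.5) minus the gene's mean over the libraries (red above, blue below), ordered in each branch by the excess of run 1. In run 1 both libraries are red for all 15 sterol enzymes, while the lower rows of the fatty acid branch are not.

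An F test of the run term in the blocked edgeR model called 10 of 15 sterol enzymes, 3 of 4 regulators and 8 of 12 fatty acid enzymes at an adjusted p of 0.05, against 35.6% of all genes. Over runs 2 to 4 alone it called 3 of 15, 1 of 4 and 4 of 12, against 27.9% of all genes. With run 1 all 3 groups stood above the background share, and without it their shares lay near it. Each run has 1 library per phase, so this test takes the phase effect as equal in all runs. What distinguished run 1 is not given in the labels, and no cause was tested.

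Related genes from the other lists were read from the same blocked fit, in which 0.481% of all genes were called higher and 0.764% lower. Of 15 sterol companions (other enzymes, SREBP proteases, transport), 1 was called lower and 0 higher in the blocked fit. Their median was -0.01, with 6 positive and 9 negative, so they did not share the lean of the 15 tested sterol enzymes. The called gene was Scarb1, the receptor for high-density lipoprotein, at -0.69 ± 0.15 (edgeR adjusted p = 0.0162), lower in 4 of 4 runs. Without the block Scarb1 was not called (adjusted p = 0.9999). Tm7sf2, another sterol enzyme, had -0.62 ± 0.41 (edgeR adjusted p = 0.59) at no more than 5.0 CPM, and was higher in G1 in 1 of 4 runs. Dhdds went the other way, at 0.26 ± 0.16 (edgeR adjusted p = 0.539), higher in 4 of 4 runs. The 19 tested fatty acid companions had a fitted median of 0.08, with 13 positive and 6 negative. Their medians in runs 1 to 4 were 0.01, 0.17, 0.05 and 0.18. Of the 19, 1 was called higher, Hacd1, a dehydratase of the elongation cycle. It stood at 0.71 ± 0.13 (edgeR adjusted p = 0.00336), higher in 4 of 4 runs and not called without the block. Its CPM were 34.6, 36.9, 59.5 and 39.5 in G0 and 49.2, 68.4, 109 and 56.8 in G1. Thrsp and Mlxipl, lipogenic regulators prominent in fat and liver, had -1.49 ± 0.58 and -0.78 ± 0.31 (edgeR adjusted p = 0.26 and 0.279) at no more than 6.97 CPM. Of 6 genes of LXR sensing and efflux, 7 of glyceride synthesis and 11 of fatty acid oxidation, 0 were called, with medians of -0.13, -0.06 and 0.12. The summed oxidation genes were higher in G1 in runs 1 to 4, by 2.87%, 8.56%, 8.40% and 21.3%. By sum, however, the fatty acid companions differed by -1.01% in run 1, and by median the oxidation genes had -0.02 in run 2. These lists thus leaned toward G1 in every run by median or by sum, but not by both. The sterol enzymes did so by both, as did the basal markers.

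Markers of other cell types that make or take up lipid were measured beside these results. The 11 adipocyte markers summed to 309, 296, 555 and 337 CPM in G0 of runs 1 to 4 and 51, 114, 266 and 153 CPM in G1, lower in G1 in every run. Most of this sum came from Fabp4 and Cd36, at 158 and 117 CPM in G0 of run 1. Which cells these transcripts came from was not tested. Of 7 tested, 2 were called lower in the blocked fit (Lpl and Cd36) and 0 higher, against 0.764% and 0.481% of all genes. None was called without the block, and the defining marker Adipoq had 52 counts in all 8 libraries. Fatty acid enzymes summed to nearly equal levels in the same pairs. In runs 1 to 4 the log2 ratio of the adipocyte sum was -2.61, -1.38, -1.06 and -1.14, and that of Fasn was -0.09, -0.07, 0.27 and -1.05. The adipocyte sum was thus lower in G1 in all 4 runs, and Fasn was lower by a similar ratio in run 4 and near level or higher in runs 1 to 3. All 10 endothelial markers were called lower in G1 in the blocked fit, against 0.764% of all genes, and 0 were called without the block. The log2 ratio of their sum was -2.28, -1.92, -1.10 and -1.45 in runs 1 to 4, beside the adipocyte ratios above. Of 8 fibroblast markers 4 were called lower and 0 higher in the blocked fit, against 0.764% and 0.481% of all genes. Without the block 0 were called. Their blocked values ran from -2.32 to 0.58. Their sum in G1 differed from that in G0 by 17.1%, 6.81%, -32.6% and 44.4% in runs 1 to 4. The 10 luminal markers summed to between 2316 and 3885 CPM in G0 and between 2352 and 3338 CPM in G1. Of 9 tested, 0 were called in the blocked fit, with a median of -0.04. Of the milk and alveolar markers 3 of 8 could be tested and 0 were called. Csn2, a milk casein, had 17 counts in all 8 libraries. Between runs, the adipocyte, endothelial and fibroblast medians were lower in run 1 than in runs 2 to 4 (-0.69, -1.12 and -1.08 on the log2 scale). So were the luminal, milk and alveolar, and immune medians (-0.39, -0.49 and -0.93), while the basal median was 0.05. The lower medians lay on the opposite side from the sterol enzymes. The part of these cells in the values above was not tested.

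**Figure D4:**
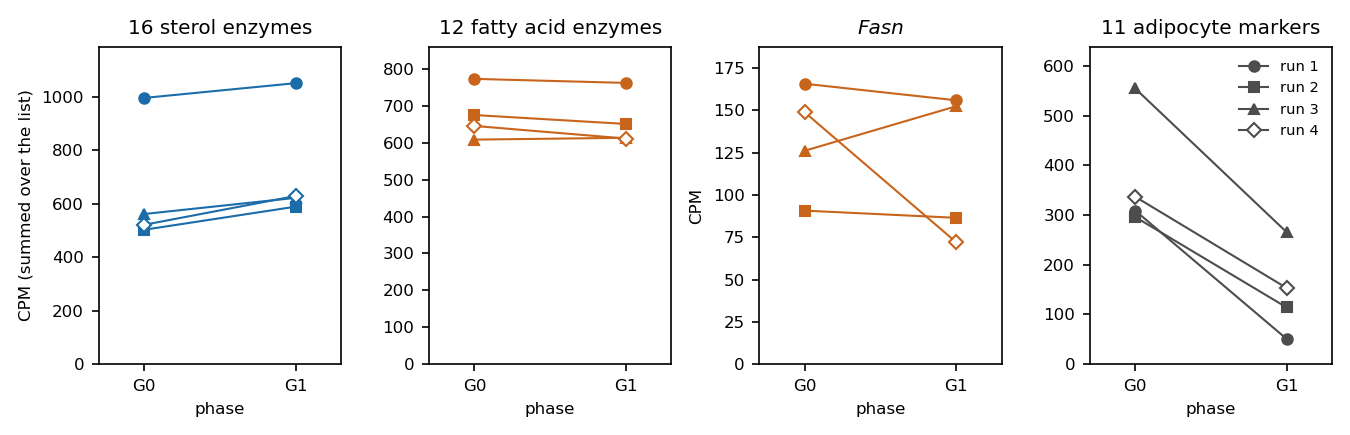
Summed CPM in G0 and G1 for the 16 sterol enzymes, the 12 fatty acid enzymes and 11 adipocyte markers, and CPM of Fasn; each line joins the 2 libraries of a run and every axis starts at 0. The sterol sum is higher in G1 in each run, with run 1 at 995 and 1051 CPM and the rest at 502 to 629 CPM; the fatty acid sums are nearly level, and Fasn in run 4 goes from 149 to 72.0 CPM.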

How the data were processed

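Oligo(dT)-selected RNA was sequenced in pairs from stranded libraries, per the labels' protocols. The submitters' processing notes name Trimmomatic 0.35, STAR 2.5.2a and the build mm10. The authors deposited whole-number counts for each Ensembl identifier, with no normalization, and the counting program is not given in the sources used here. Symbols, positions and exon lengths came from GENCODE M21 (54808 of 54837 identifiers matched). Libraries were grouped by phase and numbered by run from their titles. No 2 libraries of a phase agreed within sampling noise (chi-square at least 21.7 times its degrees of freedom). Separate animals are not stated, so the p-values cover only variation among these libraries, part of which may be technical.

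The main test was edgeR 4.0.16 (R 4.3.3), quasi-likelihood, robust, two-sided, phase only, TMM scaling, filterByExpr (15192 genes), Benjamini-Hochberg over all genes at 0.05. Standard errors were computed as the size of the log2 fold change divided by the root of F. Deviations from the phase mean correlated between libraries of the same run at 0.668, 0.470, 0.638 and 0.437, and between different runs at 0.0971 at most. Run numbers therefore pair the samples, on the titles and on these values, and the run as a replicate block is given beside the main fit. It lowered the biological coefficient of variation from 34.9% to 16.9%. Alternatives were RLE, 2 other filters, DESeq2 1.42.0, limma-voom (limma 3.58.1), the block and libraries or runs left out. The edgeR fits with and without the block were also run on simulated counts, with outcomes not reported here. Any member could be named, and at most 3 genes of each other list, those with the smallest blocked p, plus some defining markers. Members and lists were chosen with earlier results of these data known. Enzymes outside the lists are not analysed here.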

Additional observations from a re-analysis of the deposited data

Results flagged for a closer look

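Within each phase, the gap between an extreme library and its nearest neighbour was compared with the range of the 4 libraries (Dixon's test at its 95% critical value). This marked 7 of 68 groups, where chance marks about 1 in 20, and genes of 1 library are not independent. In the G0 library of run 1, Hmgcs1 had 113 CPM (next highest 43.9), Msmo1 had 112 CPM (next highest 29.5) and the summed sterol enzymes had 995 CPM (next highest 561). In the G1 library of run 1, Msmo1 had 108 CPM (next highest 40.6) and the summed sterol enzymes had 1051 CPM (next highest 629). In the G0 library of run 4, Acacb had 9.47 CPM (next highest 2.42) and Elovl1 had 92.7 CPM (next lowest 145).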

How the results depend on the processing

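In edgeR's fit with phase alone, 0 genes were called in either direction. The replicate block, for which the run numbers pair the samples, called 73 genes higher and 116 lower, 97 and 136 with DESeq2, and 63 and 134 with limma-voom. Without the block DESeq2 called 10 and 24, and dropping the low-count filter gave 14 and 73. The block changed no call among the members. With libraries or whole runs left out, calls over all genes ran from 0 to 99 higher and from 0 to 175 lower. The called fatty acid enzymes ran from 0 to 1 (Scd2, blocked fit without run 2, where 0.73 was the fold change). Branch medians ran from -0.13 to 0.46 for sterol enzymes, from -0.16 to 0.19 for regulators and from -0.14 to -0.028 for fatty acid enzymes.

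Set against the edgeR fit with phase alone, 20 members turned sign under some alternative, none of them called there. In that fit Mvk had -0.027 and Fads2 had -0.0097. Mvk became 0.017 without the low-count filter, 0.12 with limma-voom, 0.0083 with the block, 0.0056 with DESeq2 and the block, and 0.012 with limma-voom and the block. Fads2 became 0.012 without the filter, 0.075 with limma-voom, 0.062 with the block and 0.073 with DESeq2 and the block. Insig1 (0.0022) and Scd1 (0.031) turned without the filter, Fads1 (-0.011) with at least 10 counts in all 8 libraries, and Acaca (0.0049) with limma-voom. Single libraries were left out of the fit with phase alone, and whole runs out of the blocked fit. With libraries or runs left out, log2 fold changes ran from -0.36 to 1.06 for Msmo1, -0.43 to 0.77 for Hsd17b7, -0.17 to 0.78 for Hmgcs1, -0.21 to 0.46 for Idi1, -0.19 to 0.38 for Sc5d, -0.13 to 0.35 for Sqle, -0.19 to 0.34 for Dhcr7, -0.24 to 0.15 for Mvk and -0.015 to 0.21 for Fdft1. They ran from -0.22 to 0.22 for Insig1, -0.12 to 0.21 for Srebf2, -0.23 to 0.16 for Acaca, -1.13 to 0.33 for Acacb, -0.070 to 0.16 for Acly, -0.39 to 0.030 for Fasn, -0.12 to 0.13 for Scd1, -0.20 to 0.022 for Elovl1, -0.29 to 0.32 for Elovl6, -0.18 to 0.20 for Fads1 and -0.25 to 0.37 for Fads2. In the blocked fits without a whole run, Msmo1 ran from 0.24 to 0.495, Hmgcs1 from 0.12 to 0.34 and Hsd17b7 from 0.12 to 0.25. Among the sterol enzymes, Mvk (-0.17 to 0.13), Idi1 (-0.090 to 0.27) and Sc5d (-0.10 to 0.21) still changed sign there. Some regulators and fatty acid enzymes did so too. The cause of the sign changes was not tested, except that leaving out 1 library of a run breaks its pair. Precision was limited by 4 libraries a phase and a biological coefficient of variation of 34.9% without the block. The F tests of the run, the fold of run 1 and the fits without a whole run were chosen after seeing the data.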
